A study of Mus musculus with 12 samples.

Results

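The genes described here are 9 markers of tuft cells, a rare type of chemosensory cell in the intestinal epithelium: Dclk1, Trpm5, Il25, Pou2f3, Avil, Alox5, Ltc4s, Sh2d6 and Gnat3. They were found by matching the identifiers of the deposited gene table to these symbols in the mouse GENCODE M21 annotation, and all 9 were found among 53715 genes. The samples were ileal and colonic mucosa of C57BL/6J male mice aged 8 weeks, in 12 RNA-seq libraries with 3 in each of 4 groups. The control mice carried the Slc39a8-fl/fl alleles by their labels, although the methods also count wild-type mice and mice with Villin-Cre alone among controls. The Slc39a8-IEC KO mice carried the same floxed alleles together with Villin-Cre, a transgene that expresses Cre recombinase from the promoter of an intestinal epithelial gene, so that the manganese and zinc transporter gene Slc39a8 is deleted in epithelium and not in other cells of the mucosa. The labels number the libraries within a group and do not say which came from the same mouse, so p-values measure the spread between libraries.

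Tuft cells carry a bundle of stiff microvilli and use the machinery of taste cells to sense metabolites in the gut lumen. Ligands such as succinate act through G proteins and calcium release to open the cation channel TRPM5. In response, the cells release IL-25 and cysteinyl leukotrienes, which act on group 2 innate lymphoid cells, and IL-13 from those cells drives more tuft and goblet cells to form. The transcription factor POU2F3 is required for the tuft cell fate.

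Depth was between 16749138 and 27903083 expected counts per library. Levels are given as CPM, the counts of a gene scaled to a common library size with trimmed mean of M values (TMM) factors. Slc39a8 itself had 6.73 ± 1.59 CPM in ileum of control and 3.26 ± 0.954 CPM in ileum of KO mice, and 20.5 ± 0.393 CPM in colon of control and 8.93 ± 2.25 CPM in colon of KO mice (mean ± SD, n = 3 each). The KO libraries lay below the control libraries in both tissues, with 0.457 times the control level over both (edgeR adjusted p = 0.382, unadjusted p = 2.31e-05). In 2 ileal libraries, control replicate 3 and KO replicate 1, the summed level of 8 smooth muscle genes was 45.0 and 28.7 CPM, against 1930 to 2800 CPM in the other 4 ileal libraries. These libraries are 1 of each genotype. Fits of the tuft cell genes listed above and the median correlations among their pairs are also given without them. Correlations with other genes and with other cell types over 12 libraries include them and were not repeated without them.

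The chemosensory genes Trpm5 and Gnat3 were measured in every library. Trpm5 encodes the calcium-activated cation channel at the end of the taste cascade and spans chr7:143069153-143094642 on the minus strand (GRCm38). Its level was 6.99, 9.78 and 14.7 CPM in ileum of control mice and 19.5, 8.09 and 10.1 CPM in ileum of KO mice. In colon it was 8.04, 13.1 and 8.80 CPM in control and 13.1, 8.08 and 8.88 CPM in KO mice. Within each group 1 library stood above the other two, and all 4 groups overlapped. The span of Trpm5 overlaps Tssc4 on the opposite strand, and no source used here says whether counting used strand.

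Gnat3, which encodes the alpha subunit of the taste G protein gustducin, lies at chr5:17962549-18019834 on the plus strand. It was found at 1.53, 0.944 and 1.32 CPM in ileum of control and 1.91, 0.664 and 0.474 CPM in ileum of KO mice. In colon the values were 1.95, 2.11 and 1.93 CPM in control and 2.03, 1.40 and 1.45 CPM in KO mice. The 3 colonic control libraries were close to each other and above all ileal control libraries, while the KO libraries of the 2 tissues overlapped because ileal KO replicate 1 was high.

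Dclk1, Avil and Sh2d6 belong to the cell's structure and signalling scaffold. Dclk1 encodes a kinase that binds microtubules and is the marker most used for tuft cells, although enteric neurons can express it too, and it lies at chr3:55242364-55539068 on the plus strand. Its level was 5.52, 7.44 and 14.5 CPM in ileum of control and 15.1, 7.11 and 6.35 CPM in ileum of KO mice. In colon it was 11.8, 18.6 and 16.6 CPM in control and 18.1, 15.6 and 15.2 CPM in KO mice. Of the 6 ileal libraries, the 2 with few smooth muscle transcripts reached into the colonic range, and the other 4 did not exceed 7.44 CPM.

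Avil encodes advillin, an actin-bundling protein of the microvilli, at chr10:127000709-127020994 on the plus strand. It was at 2.99, 4.94 and 8.92 CPM in ileum of control, 11.6, 4.49 and 3.13 CPM in ileum of KO, 2.56, 5.85 and 4.33 CPM in colon of control and 5.80, 3.63 and 3.07 CPM in colon of KO mice. The highest values were again those of ileal control replicate 3 and ileal KO replicate 1. The Avil span overlaps Tsfm on the opposite strand. Sh2d6 encodes an adaptor with an SH2 domain, at chr6:72513641-72521707 on the minus strand. It was at 3.13, 5.28 and 5.74 CPM in ileum of control, 11.8, 4.57 and 4.64 CPM in ileum of KO, 3.43, 9.45 and 5.32 CPM in colon of control and 7.21, 4.45 and 6.10 CPM in colon of KO mice. Its highest library was ileal KO replicate 1, and ileal control replicate 3 was close to replicate 2.

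Pou2f3 was low. The gene lies at chr9:43123939-43210369 on the minus strand and had between 8 and 51 counts per library. Its level was 0.932, 0.444 and 2.17 CPM in ileum of control and 2.03, 0.938 and 0.663 CPM in ileum of KO mice, and in colon it ranged from 0.410 to 1.25 CPM in control and from 0.673 to 1.46 CPM in KO mice. The 2 values above 2 CPM came from the ileal libraries with few smooth muscle transcripts.

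Of the genes for effector molecules, Alox5 encodes 5-lipoxygenase, which starts leukotriene synthesis, and Ltc4s encodes leukotriene C4 synthase, which makes the first cysteinyl leukotriene; mast cells and other myeloid cells also express both. Alox5, at chr6:116410077-116461178 on the minus strand, was at 0.998, 1.67 and 3.78 CPM in ileum of control, 3.7, 1.56 and 1.18 CPM in ileum of KO, 1.64, 5.09 and 2.68 CPM in colon of control and 5.32, 2.18 and 2.61 CPM in colon of KO mice. Its high libraries were those of Trpm5 and Avil. Ltc4s, at chr11:50236461-50238616 on the minus strand, was at 1.46, 2.0 and 0.510 CPM in ileum of control, 2.09, 0.547 and 1.23 CPM in ileum of KO, 0.922, 1.2 and 1.6 CPM in colon of control and 1.74, 0.881 and 1.74 CPM in colon of KO mice. Ileal control replicate 3, the highest library of its group for Alox5, was the lowest of the ileal libraries for Ltc4s.

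Il25, the cytokine gene at chr14:54932695-54935837 on the plus strand, was near the limit of detection. The counts were 0, 1 and 0 in ileum of control, 7, 2 and 3 in ileum of KO, 2, 1 and 2 in colon of control and 11, 2 and 0 in colon of KO mice, which is 31 counts over all 12 libraries. A count of 0 allows a level of up to 0.200 CPM in the shallowest of the 3 libraries at 0 (3 counts, covering counting error only). The ileal KO libraries lay above the ileal control libraries by 1 count or more. Among the genes that passed the filter on low counts, 3.7% did not overlap between genotypes in ileum, in either direction. Il25 did not pass the filter on low counts. In the edgeR fit that kept every gene with at least 1 count its adjusted p was 1.0 in ileum (unadjusted p = 0.0496). Over both tissues that fit gave an adjusted p of 0.878 (unadjusted p = 0.0421). The exact two-sided permutation test in ileum gave p = 0.10, the smallest that 3 against 3 allows.

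**Figure D1:**
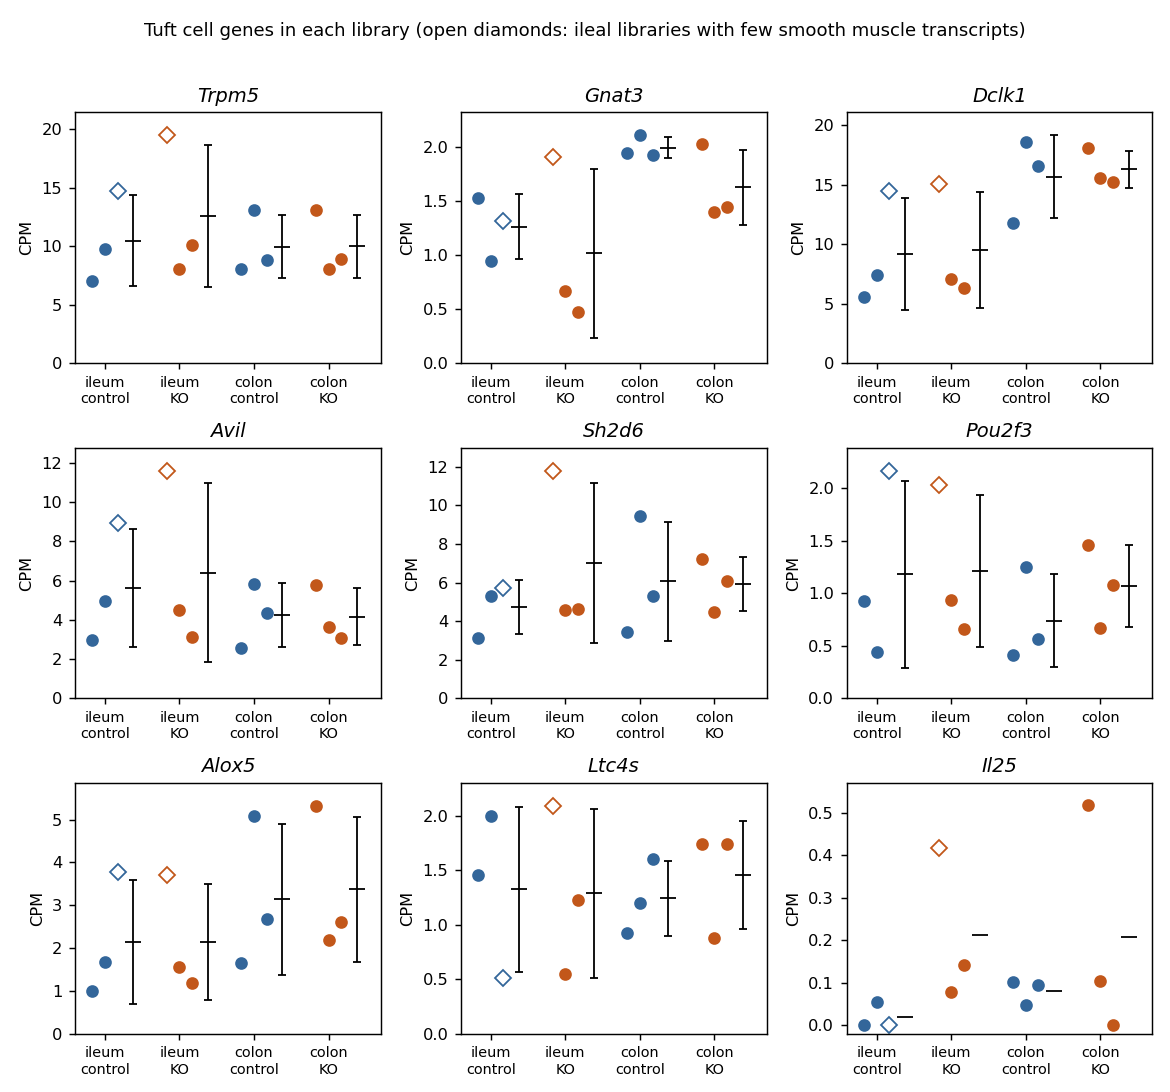
Level in CPM (linear axis, a separate scale for each gene) of the 9 tuft cell genes in 12 libraries, with control in blue, KO in orange and the mean ± SD of each group (n = 3) beside the points; the SD is left out for Il25. Open diamonds mark ileal control replicate 3 and ileal KO replicate 1, which were the highest ileal libraries for Dclk1, at 14.5 and 15.1 CPM, and for Trpm5, Avil, Pou2f3 and Alox5.

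Levels of different genes were compared per length, as CPM per kilobase of the union of annotated exons, averaged over 12 libraries. Sh2d6 was highest with 3.51 ± 1.48, then Trpm5 with 1.68 ± 0.572, Avil with 1.5 ± 0.791 and Ltc4s with 1.31 ± 0.526 CPM per kilobase (mean ± SD, n = 12). Gnat3 followed with 1.08 ± 0.402, Dclk1 with 0.828 ± 0.315 and Alox5 with 0.658 ± 0.357, and Pou2f3 with 0.340 ± 0.189 and Il25 with 0.122 ± 0.156 came last. The ranges over libraries of every 2 neighbours in this order overlapped. With the length of the longest transcript in place of the exon union, Dclk1 rose from 0.828 to 1.59 CPM per kilobase and passed Gnat3, and Ltc4s at 1.85 passed Avil at 1.68.

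The comparison of KO with control mice asked whether tuft cell transcripts depended on epithelial Slc39a8. None of the 8 tuft cell genes that passed the filter on low counts was called at an adjusted p under 0.1 over both tissues, in ileum or in colon, where edgeR called 0 of 16558 genes as well (0.0% in each). None of the 8 had an unadjusted p under 0.05 in these comparisons, and DESeq2 and limma-voom called none of them either. Of all genes, DESeq2 called 4 of 28017 over both tissues, 2 in ileum and 0 in colon. Limma-voom called 1, 1 and 0 of 16558. The median log2 fold change of the 8 genes was 0.08 over both tissues, 0.02 in ileum and 0.03 in colon, against a median of 0.00 over all genes in each. In bulk mucosa, fewer tuft cells and less RNA per tuft cell cannot be told apart, so these values refer to transcripts per library only.

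The intervals show how large a difference remained possible. Over both tissues Dclk1 differed by a log2 fold change of 0.05 ± 0.26 (SE) between KO and control, with a 95% interval from -0.51 to 0.61, and Trpm5 by 0.13 ± 0.25, with an interval from -0.42 to 0.67. As linear folds of KO over control these intervals run from 0.702 to 1.53 for Dclk1 and from 0.749 to 1.59 for Trpm5. Pou2f3, at 0.26 ± 0.44, had the widest interval of the 8, from -0.70 to 1.21, or 0.616 to 2.32 as a linear fold. The lowest estimate was that of Gnat3, at -0.32 ± 0.31 (edgeR adjusted p = 0.998), and the highest that of Sh2d6, at 0.26 ± 0.32 (adjusted p = 0.998).

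Within a tissue the intervals were wider. In ileum the estimates ran from -0.34 for Gnat3 to 0.56 ± 0.45 for Sh2d6 (edgeR adjusted p = 1.0), and in colon from -0.29 for Gnat3 to 0.53 ± 0.65 for Pou2f3 (adjusted p = 1.0). No tuft cell gene among the 8 had KO libraries entirely apart from control libraries, in ileum (3.7% of all genes tested did) or in colon (12.8%). The exact two-sided permutation test, which also covers Il25, gave no p below 0.11 over both tissues, where 0.005 was the smallest possible. The genotype effect in colon minus that in ileum lay between -0.60 for Sh2d6 and 0.53 for Pou2f3, and edgeR called 0 of the 8 genes (0.0% of all genes). None of the 8 had an unadjusted p under 0.05 by edgeR. DESeq2 and limma-voom called none of them either, where they called 1 of 28017 and 0 of 16558 genes. Without the 2 ileal libraries that had few smooth muscle transcripts, no tuft cell gene was called by edgeR in any of these 4 comparisons (0.0296% of all genes were over both tissues, 0.0178% in ileum and 0.0% in the other two), and the estimate for Gnat3 in ileum moved to -1.10 ± 0.43 (adjusted p = 0.952, unadjusted p = 0.0238).

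**Figure D2:**
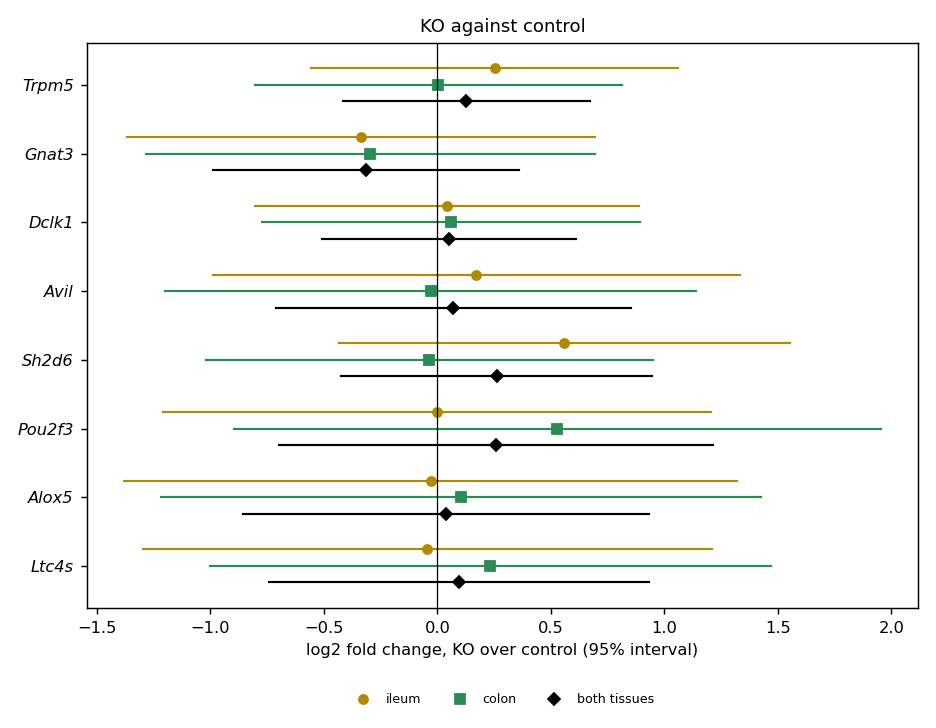
Log2 fold change of KO over control (x axis) for the 8 tested tuft cell genes in ileum (circles), colon (squares) and both tissues (diamonds), with 95% intervals from edgeR as lines. Every interval includes 0, and the intervals over both tissues of Dclk1, from -0.51 to 0.61, and Trpm5, from -0.42 to 0.67, are the narrowest.

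Other genes of the tuft cell programme were not called by edgeR between genotypes either. With edgeR this held for all 16558 genes tested and is not particular to them. Of 37 further tuft cell genes in 4 lists, 34 passed the filter. By edgeR 0 of them were called over both tissues, in ileum or in colon (0.0% of all genes in each). Their unadjusted p was under 0.05 for 1, 0 and 1 of the 34, where it was for 3.87%, 1.52% and 2.33% of all genes. The median log2 fold change of the 34 was 0.14 over both tissues, 0.05 in ileum and 0.06 in colon. In colon the gene with an unadjusted p under 0.05 was Gfi1b, which encodes a transcriptional repressor found in tuft cells, with counts of 0, 3 and 0 in control and 11, 6 and 11 in KO mice, and an adjusted p of 1.0. Of the 15 genes of the type 2 immune circuit, 9 were tested and 0 called by edgeR in the 3 comparisons (0.0% of all genes). Their unadjusted p was under 0.05 for 1, 1 and 0, beside the same shares of all genes as above. The cytokine genes Il13, Il4 and Il5, whose products act on or come from the cells that tuft cells signal to, were at 0 in most libraries and reached 0.144, 0.0596 and 0.0959 CPM at most.

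Although levels did not separate by genotype, the tuft cell genes rose and fell together from library to library. Ileal KO replicate 1 had the highest level of its group for 9 of 9 genes, ileal control replicate 3 for 6, colonic control replicate 2 for 7 and colonic KO replicate 1 for 8. Deviations from the group mean in log2 CPM were compared between pairs of genes over 12 libraries. Over all 36 pairs of the 9 genes Pearson's r had a median of 0.61, from -0.10 to 0.96, and without the 2 ileal libraries low in smooth muscle transcripts a median of 0.46. For the 21 pairs among Dclk1, Trpm5, Pou2f3, Avil, Alox5, Sh2d6 and Gnat3, r had a median of 0.83 and ran from 0.57 to 0.96, the highest for Dclk1 with Avil. This choice of genes was made after their values were seen. In the 6 ileal libraries the median was 0.82 and in the 6 colonic libraries, which had no shortage of smooth muscle transcripts, it was 0.88. Over the 10 libraries without the 2 low in smooth muscle transcripts the median was 0.73, and the lowest value, for Dclk1 with Gnat3, was 0.00.

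Ltc4s did not move with the others. Its r had a median of 0.14 over its 8 pairs, from -0.10 to 0.42, and its r with the mean of the other 7 tested genes was 0.13, against 0.93 for Trpm5, 0.93 for Sh2d6, 0.92 for Avil, 0.91 for Alox5, 0.88 for Dclk1, 0.77 for Pou2f3 and 0.70 for Gnat3. Il25, with 0 to 11 counts, had a median of 0.42 over its pairs. Because the libraries share depth, TMM factors and their mix of cells, these correlations are given as a description.

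**Figure D3:**
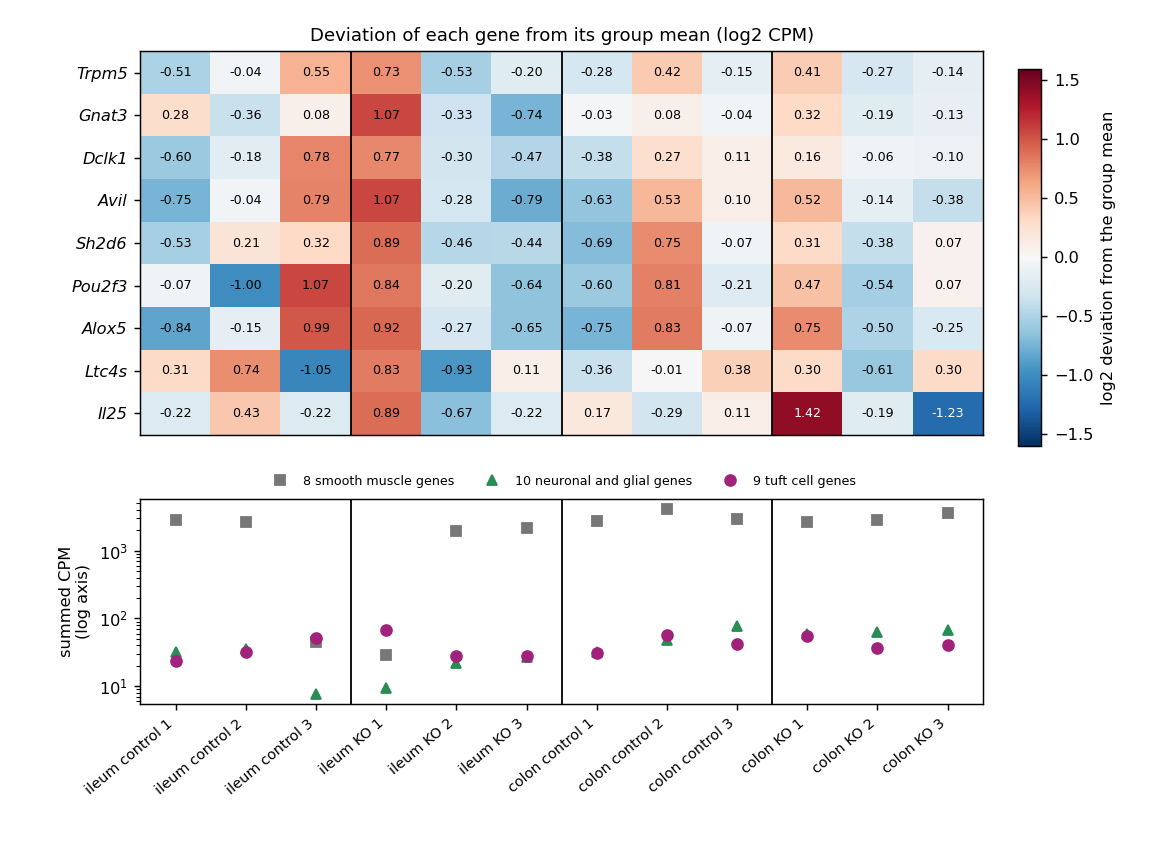
Top, deviation of each tuft cell gene from its group mean in log2 CPM, with libraries as columns and red for higher values; bottom, summed CPM (log axis) of the 9 tuft cell genes, 8 smooth muscle genes and 10 neuronal and glial genes in the same libraries. The columns of ileal control replicate 3 and ileal KO replicate 1 are red for most genes, with Dclk1 at 0.78 and 0.77, where the smooth muscle sums drop to 45.0 and 28.7 CPM, and those of colonic control replicate 2 and colonic KO replicate 1 are red without such a drop.

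The summed level of the 9 genes was 51.7 and 68.1 CPM in the 2 ileal libraries with few smooth muscle transcripts and 23.6 to 32.6 CPM in the other 4. Sums of several other cell types also differed there, some lower and some higher. In those 2 libraries 10 genes of enteric neurons and glia summed to 7.65 and 9.54 CPM, against 22.4 to 35.2 CPM in the others, 10 macrophage and dendritic cell genes to 98.8 and 96.5 CPM, against 192 to 232 CPM, and 6 fibroblast genes to 43.3 and 40.8 CPM, against 313 to 599 CPM. The 6 enteroendocrine genes summed to 208 and 174 CPM, against 83.9 to 111 CPM, whereas 7 general epithelial genes summed to 16800 and 18100 CPM, against 18700 to 21600 CPM. The part of these shifts in the tuft cell values was not tested. In colon the summed tuft cell level was 56.7 CPM in control replicate 2 and 55.3 CPM in KO replicate 1, against 30.8 to 41.9 CPM in the other 4, with smooth muscle sums of 4150 and 2660 CPM against 2730 to 3610 CPM. In these 2 libraries the macrophage and dendritic cell sums were 144 and 82.0 CPM, against 122 to 202 CPM, and the fibroblast sums 534 and 289 CPM, against 450 to 589 CPM. Over the 6 colonic libraries all 9 tuft cell genes had a negative r with both sums, from -0.97 to -0.04 with macrophages and from -0.99 to -0.06 with fibroblasts, the strongest for Il25. The 10 mast cell genes summed to 14.7 to 39.3 CPM over the 12 libraries, of which Kit, which interstitial cells of Cajal also express, made up 71.3% to 99.0%. Of the other 9, the protease genes Mcpt1 and Mcpt2 reached 4.29 and 2.33 CPM, and none of the remaining 7 exceeded 0.563 CPM. Over 12 libraries the deviations of the mast cell sum had an r of 0.71 to 0.92 with those of 7 tuft cell genes, of 0.21 with Il25 and of -0.11 with Ltc4s. Over the 6 colonic libraries the r was 0.50 to 0.93 with the same 7 genes, 0.07 with Il25 and 0.21 with Ltc4s. The part of Kit-expressing cells was not tested.

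Several regulators followed the same libraries. Pou2af2 and Pou2af3, which encode coactivators of POU2F3, had r = 0.97 and r = 0.95 with the mean deviation of the 8 tested genes over 12 libraries, and ranks 1 and 2 when all 16558 tested genes are ordered by it. Spib, an ETS factor gene of tuft and B cells, was at 10.9 and 13.8 CPM in the 2 ileal libraries with few smooth muscle transcripts, against 1.86 to 2.74 CPM in the other ileal libraries. Sh2d7, which encodes another SH2 adaptor of tuft cells, had r = 0.94, and the short-chain fatty acid receptor gene Ffar3 had r = 0.94. Of the 34 other tuft cell genes tested, 15 had r above 0.7, and 1355 of all 16558 genes tested did. At the other end, Il13ra1, a receptor chain for IL-13 with wide expression, had r = -0.87.

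Outside the tuft cell lists, the genes with the highest r to the same mean deviation were Plk2, at 0.948, Ap1ar, at 0.945, Man2b1, at 0.943, Taf1c, at 0.942, and Adgra3, at 0.939. Without removal of group means, Ap1ar, at 0.919, Man2b1, at 0.918, Strip2, at 0.916, Cd300lf, at 0.913, and Dhx34, at 0.910, came first. These are likenesses over 12 libraries that also share their other differences.

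Because the genes moved together, their promoters were searched for the octamer ATGCAAAT, the site that POU factors bind. RefSeq promoters (GRCm38.p6, 250 bases before to 50 after the start) were held for 7 of the 9 genes, 8 windows in all with 2 for Dclk1, and not for Pou2f3 and Il25. On either strand the octamer was in 0 of 8 windows, and 1.74% of 32851 mouse promoters of that length held it. Its first 7 letters, ATGCAAA, a choice made after the first search, were in 1 of 8 windows, that of Avil, on the plus strand from -15 to -9 and on the minus strand from -115 to -109 relative to the start, and in 4.63% of all promoters. The windows of the 3 genes that followed the others most closely are shown, with matches to the 7 letters on either strand in capitals.
Avil promoter, chr10:127000459-127000758, plus strand: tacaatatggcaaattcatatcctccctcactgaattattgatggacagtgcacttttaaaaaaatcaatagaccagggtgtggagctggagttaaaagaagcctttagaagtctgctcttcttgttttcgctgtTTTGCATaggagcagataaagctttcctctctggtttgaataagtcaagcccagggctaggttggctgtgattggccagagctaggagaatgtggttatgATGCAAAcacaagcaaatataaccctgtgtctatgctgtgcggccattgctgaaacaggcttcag
Trpm5 promoter, chr7:143094593-143094892, minus strand: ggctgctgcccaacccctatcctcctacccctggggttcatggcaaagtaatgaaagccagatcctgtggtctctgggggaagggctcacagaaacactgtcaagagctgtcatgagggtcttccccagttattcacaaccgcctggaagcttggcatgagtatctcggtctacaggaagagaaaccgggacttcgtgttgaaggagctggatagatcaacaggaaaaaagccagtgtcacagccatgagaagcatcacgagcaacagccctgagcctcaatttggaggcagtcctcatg
Sh2d6 promoter, chr6:72519987-72520286, minus strand: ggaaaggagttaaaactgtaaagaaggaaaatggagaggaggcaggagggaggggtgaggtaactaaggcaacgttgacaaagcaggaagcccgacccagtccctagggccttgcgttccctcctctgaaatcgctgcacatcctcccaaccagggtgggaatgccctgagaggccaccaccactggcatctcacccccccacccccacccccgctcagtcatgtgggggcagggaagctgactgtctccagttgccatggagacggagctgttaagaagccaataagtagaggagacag

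The comparison of colon with ileum asked how the tuft cell genes are distributed along the gut. With all 12 libraries and no block, none of the 8 tested genes was called in control mice, where edgeR called 35.9% of all genes, or in KO mice, where it called 37.1%. None had an unadjusted p under 0.05 by edgeR. DESeq2 called none in either genotype, where it called 6219 of 28017 genes in control and 6421 in KO mice. Limma-voom called Dclk1 in KO mice only, where it called 6175 of 16558 genes in control and 6286 in KO mice. By edgeR, Dclk1 had the lowest p of the 8 in both genotypes. Its level was 9.17 ± 4.74 CPM in ileum and 15.7 ± 3.51 CPM in colon of control mice, and 9.51 ± 4.84 and 16.3 ± 1.6 CPM in KO mice (mean ± SD, n = 3). The log2 fold change was 0.76 ± 0.39 (SE) in control (edgeR adjusted p = 0.165) and 0.78 ± 0.39 in KO mice (adjusted p = 0.152), and the 2 comparisons share no library.

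The call for Dclk1 changed with the fit. With same-numbered ileal and colonic libraries of a genotype as a replicate block it was called in both, at 0.86 ± 0.29 in control (edgeR adjusted p = 0.0677) and 0.88 ± 0.29 in KO mice (adjusted p = 0.0602), and with upper-quartile factors in KO mice (adjusted p = 0.0865). The block fit called 5573 of 16558 genes in control and 5886 in KO mice, and upper-quartile factors called 6312 in KO mice. The ileal libraries with few smooth muscle transcripts moved Dclk1 most. Without them Dclk1 was called in both genotypes, with a log2 fold change of 1.25 ± 0.22 in control (edgeR adjusted p = 0.00107) and 1.28 ± 0.22 in KO mice (adjusted p = 0.000798). Gnat3 was then called in KO mice, at 1.5 ± 0.38 (adjusted p = 0.0102), as was Alox5, at 1.30 ± 0.52 (adjusted p = 0.0745). Leaving out control replicate 3 alone, or KO replicate 1 alone, was enough for Dclk1 to be called in both genotypes. Without control replicate 3, 5825 of 16987 genes were called in control and 7166 in KO mice. Without KO replicate 1, 6446 of 17026 and 5412 were. The tuft cell genes called without both libraries were 1 of 8 in control, where 42.0% of all genes were called, and 3 of 8 in KO mice, where 43.2% were. These tuft cell genes were all higher in colon. The 10 enteric neuron and glia genes summed to 31.9 to 77.2 CPM in colon against 22.4 to 35.2 CPM in the 4 remaining ileal libraries, ranges that overlap. With all 12 libraries, edgeR called 1 of the 10 higher in colon in control mice (16.2% of all genes). In KO mice it called 6 of the 10 higher (17.1% of all genes). The part of neurons in the Dclk1 level was not tested. Over the 6 colonic libraries the deviations of Dclk1 and of the neuronal sum had an r of 0.58, and over all 12 libraries an r of -0.72.

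With all libraries, the estimates of the other genes lay on both sides of 0. Gnat3 was at 0.66 ± 0.46 on the log2 scale in control and 0.70 ± 0.47 in KO mice, and Alox5 at 0.53 ± 0.61 and 0.66 ± 0.61, while Avil was at -0.41 ± 0.53 and -0.61 ± 0.53, and Trpm5 at -0.08 ± 0.37 and -0.33 ± 0.37. Pou2f3 was at -0.69 ± 0.65 and -0.16 ± 0.64, Sh2d6 at 0.36 ± 0.45 and -0.24 ± 0.45, and Ltc4s at -0.08 ± 0.57 and 0.20 ± 0.57. Without the 2 ileal libraries the estimates of all 8 genes were above 0 in both genotypes, except that of Ltc4s in control mice at -0.50, and those of Avil, Trpm5, Pou2f3 and Sh2d6 were not called. Colonic and ileal libraries lay entirely apart for 1 of 8 genes in control mice, Gnat3, and for 1 of 8 in KO mice, Dclk1, where 40.7% and 50.4% of all genes did.

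**Figure D4:**
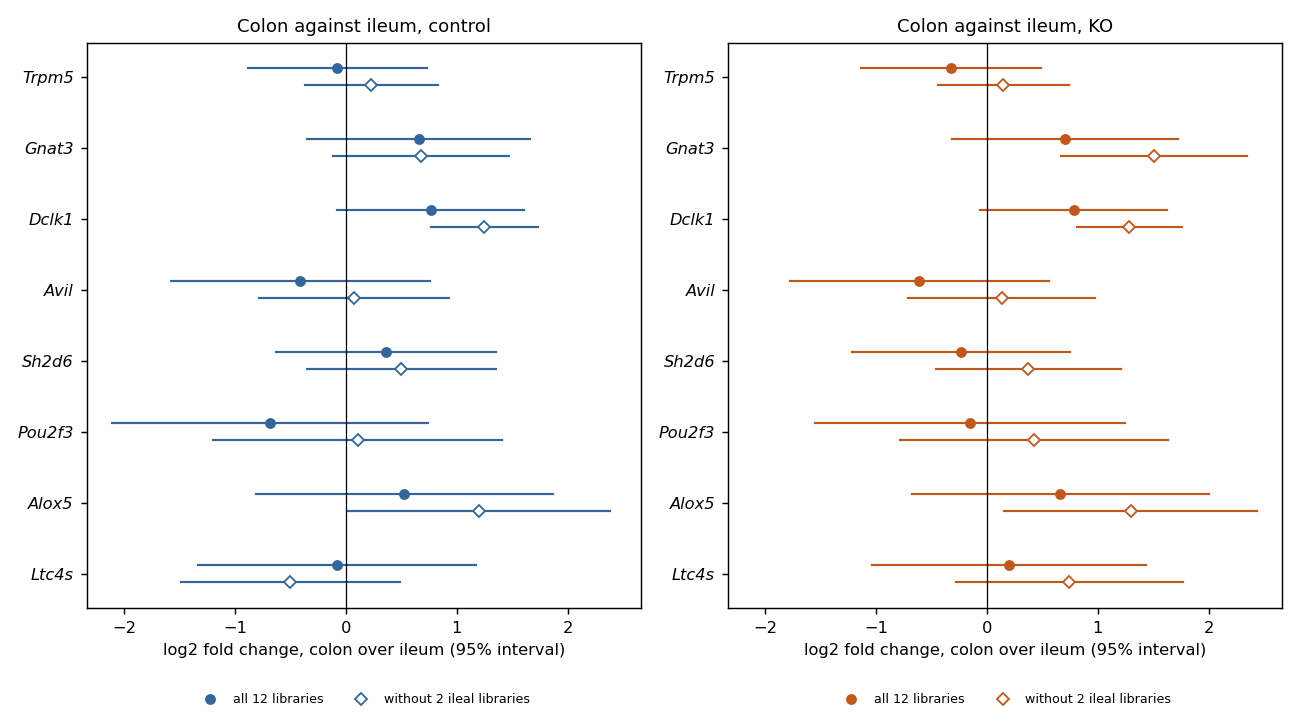
Log2 fold change of colon over ileum (x axis) for the 8 tested tuft cell genes in control (left) and KO mice (right), with 95% intervals from edgeR. Filled circles use all 12 libraries and open diamonds leave out ileal control replicate 3 and ileal KO replicate 1; Dclk1 moves from 0.76 to 1.25 in control and from 0.78 to 1.28 in KO mice, and its interval then excludes 0.

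Levels of general epithelial genes differed between the tissues, and whether the share of epithelium differed was not tested. All 7 general epithelial genes were called lower in colon in both genotypes, and Epcam, a surface protein of all epithelial cells, was at 2680 to 3660 CPM in ileum and 1330 to 1650 CPM in colon. Relative to Epcam, a scale chosen after the values were seen, Dclk1 was at 3.14 ± 2.04 CPM per 1000 CPM of Epcam in ileum and 10.9 ± 2.96 in colon of control mice, and at 3.01 ± 1.77 and 10.5 ± 0.512 in KO mice. The ratio of colon to ileum was 3.47 for Dclk1 in each genotype, with no overlap of libraries, 3.39 and 3.19 for Gnat3, and 2.97 and 3.12 for Alox5. Trpm5 had ratios of 1.97 and 1.6 and Avil 1.54 and 1.29. All 8 tested genes had a higher mean in colon on this scale, including those below 0 on the CPM scale. The lower Epcam level in colon raises every ratio, so this direction does not show a higher tuft cell level. Libraries of the tissues overlapped for Pou2f3, Avil and Ltc4s in both genotypes, Alox5 in control, and Trpm5 and Sh2d6 in KO mice. The ratio depends on Epcam as well as on the tuft cell gene and was not tested.

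The other tuft cell genes were called between tissues in both directions, in shares near those of all genes. In control mice 5 of 34 were higher in colon (16.2% of all genes were) and 5 lower (19.6% of all genes), and in KO mice 5 were higher (17.1%) and 8 lower (20%). With library size only as the scaling, the lower calls in KO mice dropped from 8 to 2, and with upper-quartile factors to 5. The median log2 fold change of the 34 was -0.34 in control and -0.20 in KO mice, against 0.02 and 0.01 over all genes. The genes higher in both genotypes were Pla2g4a, Hpgds, Tspan6, Cd24a and Kctd12. Pla2g4a encodes the cytosolic phospholipase A2 that releases arachidonic acid, the substrate of ALOX5, and rose by a log2 fold change of 1.40 ± 0.18 in control (edgeR adjusted p = 0.000146) and 1.51 ± 0.18 in KO mice. Hpgds, which encodes a prostaglandin D synthase, rose by 0.98 ± 0.23 (adjusted p = 0.00787) and 0.63 ± 0.23, and Cd24a, also expressed in Paneth and progenitor cells, by 1.86 ± 0.33 (adjusted p = 0.00151) and 2.06 ± 0.33.

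The genes lower in colon in both genotypes were Irag2, Il13ra1, Inpp5d, Vav1 and Pou2af3. Irag2, formerly Lrmp, fell by 1.31 on the log2 scale in control and 1.25 in KO mice (edgeR adjusted p = 0.00807 and 0.00989). Pou2af3 fell by 1.87 and 1.76 (adjusted p = 0.0604 and 0.0707) and was no longer called without the 2 ileal libraries with few smooth muscle transcripts, where it was at 2.38 and 2.86 CPM against 0.711 to 1.06 CPM in the other ileal libraries. In KO mice, Fyb, the succinate receptor gene Sucnr1 and the phospholipase C gene Plcb2 were also lower, and Sucnr1, Plcb2 and Vav1 lost their calls in KO mice without those libraries. Inpp5d and Vav1 are expressed widely in leukocytes, and 6 leukocyte genes summed to 99.2 to 138 CPM in ileum and 34.2 to 70.4 CPM in colon. The part of leukocytes in the differences of Inpp5d and Vav1, or of Irag2, Fyb and Plcb2, was not tested. In the type 2 immune circuit 2 of 9 genes were lower in colon in each genotype and 0 higher, where 19.6% of all genes in control and 20% in KO mice were lower. These were Il4ra, the receptor chain through which epithelium responds to IL-13, which fell by 2.12 and 1.44 on the log2 scale (edgeR adjusted p = 0.000803 and 0.0081), and Il1rl1, the IL-33 receptor gene, which fell by 2.40 and 2.51 on the log2 scale (adjusted p = 0.00456 and 0.00287).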

How the data were processed

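RNA was extracted from whole ileal or colonic mucosa and sequenced after oligo-dT priming. The authors deposited expected counts per gene for 12 libraries, not normalized and 93.7% whole. The submitters' processing notes name STAR and mm10, and the reporting summary names UMI-tools for duplicates and FeatureCounts for counting, which does not by itself give the values that are not whole; how these arose is not stated. Lines of 92 spike-ins, with 0 counts, were left out. Depth ranged from 16749138 to 27903083 expected counts, and limits on a count of 0 cover counting error only.

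Expected counts were rounded, genes were filtered with filterByExpr (16558 kept), and groups were compared with edgeR 4.0.16 in R 4.3.3: quasi-likelihood test, TMM factors, Benjamini-Hochberg adjustment over all genes, calls at an adjusted p under 0.1, as in the study. The fit over both tissues had tissue and genotype as terms, and the others used the 4 groups. Log2 CPM used a prior count of 2. Single genes were also tested by exact permutation on log2(CPM + 0.5), in 27 tests. Alternatives were DESeq2 1.42.0, limma-voom (limma 3.58.1), other scalings and filters, blocks and libraries left out. The edgeR script was tested on simulated data. The rule named all 9 genes, the 5 genes most like them and Slc39a8, and allowed any gene of the other tuft cell and circuit lists, those called first. The genes and lists were chosen with earlier results of these data known.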

Additional observations from a re-analysis of the deposited data

How the results depend on the processing

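In the 4 genotype comparisons no tuft cell gene was called under any alternative, and no alternative called more than 5 genes of all in any of them. Between tissues, Dclk1 was called in control mice with a replicate block within genotype (1 gene) and without the 2 ileal libraries with few smooth muscle transcripts (1 gene). In KO mice 1 gene, Dclk1, was called with limma-voom, with upper-quartile factors and with the replicate block within genotype, and 3 genes without the 2 libraries. Leaving out 1 library at a time gave 0 to 1 calls in control and 0 to 2 in KO mice, and the calls came without ileal control replicate 3 or ileal KO replicate 1. The labels do not say whether same-numbered ileal and colonic libraries of a genotype share a mouse. In those 6 pairs the correlation of deviations from group means ran from -0.08 to 0.251 (median 0.108), and they were not treated as paired. In counts simulated from these libraries, edgeR recovered 60% of 2-fold changes over both tissues, 35% in ileum and 31% in colon. The simulation changed 200 genes of all levels, so its shares are not those of the tuft cell genes. Over both tissues of the real data, DESeq2 called 4 of 28017 genes between genotypes and limma-voom 1 of 16558. The paper, which used DESeq2 on ileum and colon combined, reported Slc39a8 among its called genes. In the real data edgeR called 0 of 16558 genes between genotypes, and Slc39a8 itself was not called by edgeR. The simulated shares may therefore be too high, and they limit what the genotype comparisons can show. Scaling by library size only moved the median of all genes between tissues to 0.24 in control and 0.29 in KO mice and the calls to 4156 higher and 2102 lower in control and 4637 and 1908 in KO mice. Upper-quartile factors gave medians of 0.12 and 0.14 and calls of 3373 higher and 2741 lower in control and 3678 and 2634 in KO mice. Among the 34 other tuft cell genes, library size only left 3 lower in colon in control and 2 in KO mice, against 5 and 8 with TMM, and upper-quartile factors left 4 and 5, with 5 higher in each.

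Estimates that changed sign are given on the log2 scale, and the cause was not tested. With the replicate block they were Alox5 over both tissues at -0.022, Pou2f3 in ileum at 0.022, Trpm5 in colon at -0.036 and the Dclk1 difference between tissues in genotype effect at -0.0072, and with the block within genotype Ltc4s between tissues in control at 0.036. With limma-voom they were Avil over both tissues at -0.039, Dclk1, Pou2f3 and Avil in ileum at -0.067, 0.0099 and -0.052, Sh2d6 in colon at 0.061, the Avil difference at 0.03 and Ltc4s between tissues in control at 0.18. DESeq2 put Pou2f3 in ileum at 0.0046. Without the 2 ileal libraries, Avil and Ltc4s over both tissues were at -0.037 and -0.23, Pou2f3, Avil and Alox5 in ileum at 0.23, -0.072 and 0.027, and the Avil difference at 0.058. There, Trpm5, Pou2f3 and Avil between tissues were at 0.23, 0.11 and 0.073 in control and 0.15, 0.42 and 0.13 in KO mice, with Sh2d6 at 0.37 in KO mice. With library size only, Pou2f3 and Ltc4s in ileum were at 0.019 and 0.074, Avil and Sh2d6 in colon at 0.045 and 0.043, and between tissues Trpm5 and Ltc4s at 0.12 and 0.2 in control and Pou2f3 and Sh2d6 at 0.09 and 0.0074 in KO mice. With upper-quartile factors, Trpm5 in colon was at -0.00064, and Trpm5 and Ltc4s between tissues in control at 0.036 and 0.0096. A minimum of 1 CPM in 3 libraries put Pou2f3 in ileum at 5.9e-05 and Trpm5 in colon at -0.0058, and a fit of the colonic libraries only put Trpm5 at -0.003. Divided by Epcam, an alternative chosen after seeing the data, the log2 ratios of colon to ileum of Trpm5, Pou2f3 and Avil were 0.98, 0.38 and 0.62 in control and 0.68, 0.83 and 0.37 in KO mice, Ltc4s was at 1.02 in control and Sh2d6 at 0.77 in KO mice. On CPM without a log, the difference in means was -0.00088 CPM for Alox5 in ileum and -0.15 CPM for Sh2d6 in colon.

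Leaving out 1 library at a time gave these ranges for estimates that changed sign. Over both tissues they were -0.16 to 0.27 for Dclk1, -0.09 to 0.27 for Trpm5, -0.27 to 0.29 for Avil, -0.22 to 0.34 for Alox5, -0.11 to 0.3 for Ltc4s and -0.037 to 0.51 for Sh2d6. In ileum they were -0.45 to 0.55 for Dclk1, -0.21 to 0.58 for Trpm5, -0.58 to 0.81 for Pou2f3, -0.57 to 0.69 for Avil, -0.66 to 0.67 for Alox5, -0.57 to 0.4 for Ltc4s, -0.039 to 0.79 for Sh2d6 and -1.13 to 0.0051 for Gnat3. In colon they were -0.11 to 0.2 for Dclk1, -0.25 to 0.25 for Trpm5, -0.36 to 0.27 for Avil, -0.41 to 0.64 for Alox5 and -0.32 to 0.44 for Sh2d6. For the difference of genotype effects they were -0.48 to 0.51 for Dclk1, -0.56 to 0.21 for Trpm5, -0.26 to 1.13 for Pou2f3, -0.7 to 0.54 for Avil, -0.55 to 0.77 for Alox5, -0.17 to 0.8 for Ltc4s, -0.88 to 0.0038 for Sh2d6 and -0.3 to 0.84 for Gnat3. Between tissues in control they were -0.32 to 0.23 for Trpm5, -1.28 to 0.1 for Pou2f3, -0.71 to 0.076 for Avil, -0.0074 to 1.2 for Alox5, -0.5 to 0.36 for Ltc4s and -0.11 to 0.64 for Sh2d6. In KO mice they were -0.59 to 0.13 for Trpm5, -0.47 to 0.41 for Pou2f3, -0.95 to 0.12 for Avil, -0.18 to 0.72 for Ltc4s and -0.47 to 0.36 for Sh2d6.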
